A study of Homo sapiens with 12 samples.

Results

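The mitochondrial ribosomal protein genes were described here in HEK293 cells, a human embryonic kidney line transformed with adenovirus DNA, after transfection of a microRNA mimic. Members were the genes whose symbol on the array was MRPL or MRPS followed by a number and at most 1 letter, and the brightest row over all 12 arrays stood for each gene. This gave 73 genes of the 14884 named ones, 48 of the large subunit (MRPL) and 25 of the small subunit (MRPS), from 82 rows of a table of 53617. One group, mimic-1825, had received the synthetic mimic Syn-hsa-miR-1825 at 5 nM, and the other, control, had received AllStars Negative Control siRNA at the same 5 nM with the same reagent. RNA was taken from both at 24 h. There were 6 arrays in each group, and none of the 12 arrays held untransfected cells. The study set out to find messages targeted by miR-1825, a microRNA it associates with the motor neuron disease ALS. Whether the 6 samples of a group came from separate cultures is not in the labels, and each p-value here therefore reflects spread among samples that may be technical repeats.

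The mitochondrial ribosome works in the matrix of the organelle and makes the few proteins that mitochondrial DNA encodes, all of them parts of the respiratory chain and of ATP synthase. Its ribosomal RNAs come from mitochondrial DNA, but every one of its proteins is encoded in the nucleus, made in the cytosol and imported. Some of these proteins descend from those of the bacterial ribosome, whereas others occur in mitochondria alone. A microRNA guides a silencing complex to messages that pair with its seed, the bases near its 5′ end, and lowers their level or translation.

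The mimic is named for the mature microRNA printed here from RefSeq (GRCh38.p14, chr20:32237830-32237847, plus strand) and shown because it is the agent under test; its seed, bases 2 to 8, is in capitals. Sites for this seed in the messages of the family were not analysed here.
hsa-miR-1825: uCCAGUGCccuccucucc

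The arrays gave log2 expression values, and every difference below is the mean of the mimic-1825 arrays minus the mean of the control arrays on that log2 scale. Array medians lay between 4.44 and 4.51, and the 66 pairs of arrays correlated at 0.988 to 0.994. The labelled cell type was checked against lists of markers. Of 10 genes listed for HEK293, 7 were named on the array, with means from 5.60 to 9.68. Those listed for fibroblasts (3 of 8 named) had means from 2.66 to 5.71, those for leukocytes (4 of 8 named) from 3.02 to 6.27, and those for epithelial cancer lines (5 of 7 named) from 3.33 to 7.95. At or above the median of all rows were 7 of 7 HEK293 markers, 2 of 3 fibroblast, 2 of 4 leukocyte and 3 of 5 epithelial ones. Levels of different rows cannot be ranked, so these values do not settle the cell type. With limma 0 genes of these lists had an adjusted p under 0.05. At an unadjusted p under 0.05 KRT18 (-0.10), SPI1 (-0.31) and CLDN7 (-0.22) were lower, beside 4.19 percent of named genes. The rows of SPI1 and CLDN7 lay outside the brightest 25 percent of rows, with means of 5.55 and 5.35.

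All 73 mitochondrial ribosomal protein genes gave a signal at or above the median of all rows, and 69 of them lay among the brightest 25 percent of rows. The means over 12 arrays ran from 4.98 for MRPL23 to 11.48 for MRPL37. The 4 genes outside that brightest share were MRPL23, MRPL32, MRPL43 and MRPL52. Each row has probes of its own, so these levels describe the rows and do not rank the transcripts. Replicates were close: the SD within groups had a median of 0.07 over the family, with a range from 0.03 for MRPL34 to 0.14 for MRPL52, against a median of 0.12 over all named genes and of 0.08 over the named genes in the brightest 25 percent of rows. MRPL12, MRPS6, MRPS18C, MRPS24 and MRPS36 were not analysed here.

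No mitochondrial ribosomal protein gene passed the test between mimic-1825 and control arrays, and the family as a whole centred near 0. With limma over all 53617 rows, 0 of 73 members had an adjusted p under 0.05, beside 0.0112 percent of all rows. The median difference of the family was 0.003, beside 0.0002 over all named genes and -0.009 over all rows. It was 0.02 over the 6432 named genes in the brightest 25 percent of rows, where most of the family lies. These are bulk samples, in which fewer cells of a kind and less RNA per cell cannot be told apart. Means were higher on the mimic arrays in 38 members and lower in 35. Higher means made up 52.1 percent, against 50.1 percent of named genes and 59.9 percent of those in the brightest 25 percent of rows. At an unadjusted p under 0.05, 5 members were higher (MRPL22, MRPL42, MRPL47, MRPL30 and MRPS27), beside 6.69 percent of named genes, and 1 was lower (MRPL28), beside 4.19 percent of named genes. Those shares of the family, 6.85 percent and 1.37 percent, are near or under the background. Over all rows the background was 5.36 percent higher and 5.4 percent lower, and over named genes at or above the median level, where the whole family lies, it was 8.36 percent higher and 3.77 percent lower. Among named genes in the brightest 25 percent of rows it was 11.0 percent higher and 3.02 percent lower. The split depended on the scaling, since quantile normalization of the same values gave 2 higher and 6 lower members, beside 5.37 percent higher and 5.27 percent lower among named genes. It also depended on 1 array, because without control replicate 4 there was 1 higher member, MRPL22, and there were 4 lower ones, MRPL28, MRPL54, MRPS12 and MRPS2. The shares of named genes called without that array were not computed. Whether the change is particular to the family was therefore not tested.

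**Figure D1:**
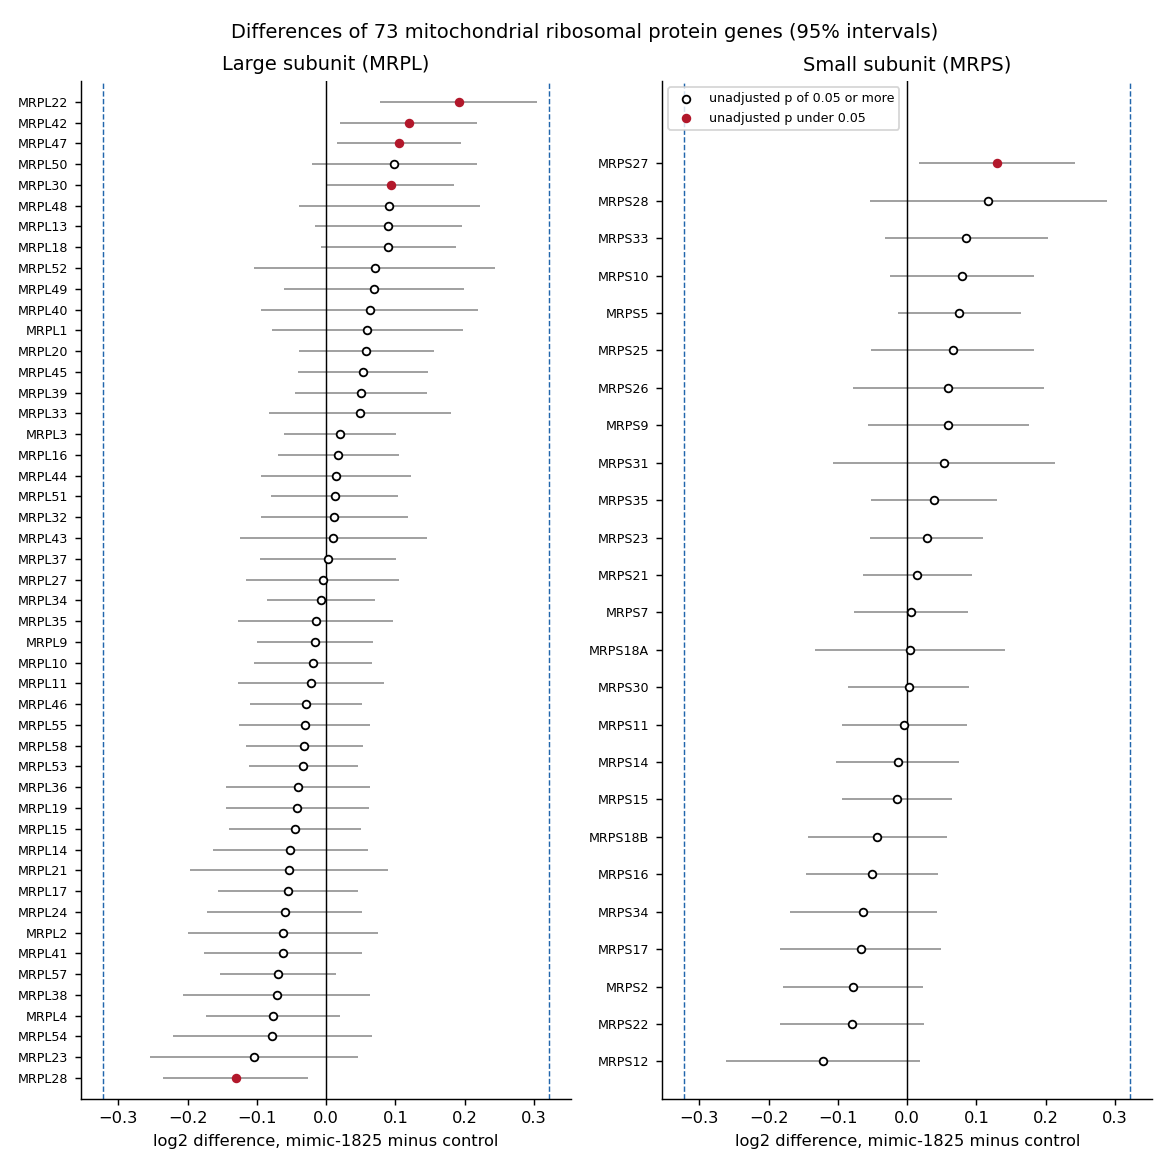
The log2 difference (mimic-1825 minus control, horizontal axis) of each of the 73 genes is a point with its 95% interval from limma, with the large subunit on the left and the small subunit on the right; filled points have an unadjusted p under 0.05 and dashed lines mark a 1.25-fold difference either way. All 73 intervals lie between the dashed lines, and 67 contain 0.

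The intervals give, gene by gene and for the values as deposited, the differences compatible with the spread among these arrays. The 6 samples of a group may be technical repeats. Their spread would then leave out variation between cultures, and the intervals would not bound an effect of the mimic. In the fit to the deposited values the 95% intervals of all 73 members lay inside a 1.25-fold difference either way on the scale of the arrays. The lowest bound was -0.26, in MRPS12, and the highest was 0.30, in MRPL22. The median interval reached 0.10 to each side of its estimate. These intervals were not widened for the number of members, and none were computed for the alternative analyses. Without single arrays the difference of MRPL22 ran from 0.165 to 0.209, and in the other alternatives from 0.168 to 0.206. Whether its interval stays inside the 1.25-fold limit there was not tested. A difference of at least 0.1 in size occurred in 8 of 73 members, or 11 percent, against 27.7 percent of all named genes and 21.8 percent of the named genes in the brightest 25 percent of rows. Rows of the family also varied less within groups than named genes did, as given above. Arrays can compress fold differences, which was not measured here.

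**Figure D2:**
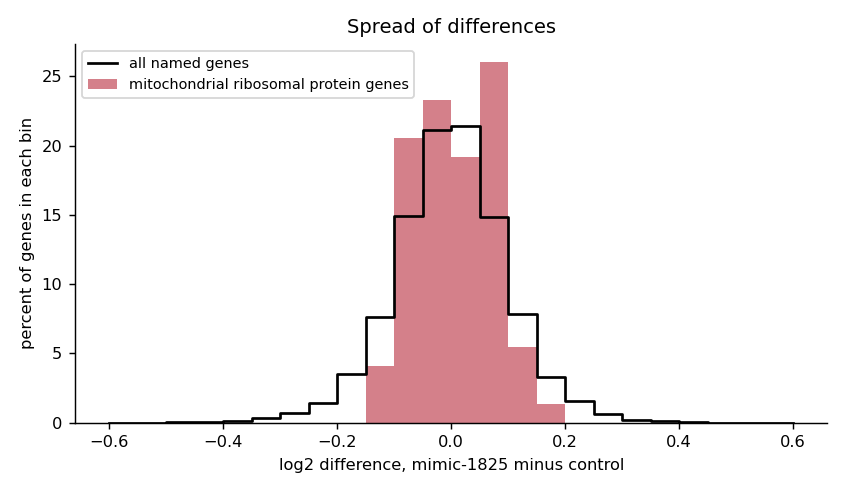
Bars give the percent of the 73 mitochondrial ribosomal protein genes and the black line the percent of the 14884 named genes in each bin of the log2 difference (mimic-1825 minus control), with bins 0.05 wide. No member falls below -0.15 or above 0.2, and 3 named genes lie outside the plotted range.

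The subunits had medians close to each other. The 48 MRPL genes had a median difference of -0.006, with 23 means higher and 25 lower on the mimic arrays, and the 25 MRPS genes had a median of 0.006, with 15 higher and 10 lower. Higher means made up 47.9 percent of MRPL and 60 percent of MRPS genes. Among named genes they made up 50.1 percent, and 59.9 percent in the brightest 25 percent of rows. At an unadjusted p under 0.05, 4 MRPL genes were higher and 1 lower, and 1 MRPS gene was higher and 0 were lower. As shares these are 8.33 percent and 2.08 percent of MRPL genes and 4 percent and 0 percent of MRPS genes, near or under the 6.69 percent and 4.19 percent of named genes. The large subunit median minus the small one was -0.01, and without mimic replicate 2 this difference of medians was -0.034. For the subunit means, the large minus small score of each array differed between the groups by -0.006. That score had an SD of 0.02 within groups. It is a difference of means, so its SD cannot be set against the differences of medians. The SD describes the spread of single arrays and not the error of a difference between groups. Quantile normalization turned the small subunit median to -0.01, with 11 higher and 14 lower. Centring arrays on their medians moved the difference of every gene by the same amount. It turned the large subunit median to 0.009, beside 0.015 over all named genes and 0.033 over those in the brightest 25 percent of rows. The protein products of MRPS18A and MRPS30 are found in the large subunit in structures of the mammalian mitoribosome, although their names say otherwise. With both counted there the medians were -0.002 for 50 large subunit genes and 0.01 for 23 small subunit genes.

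Array by array, the mean level of the family varied more among the mimic arrays than it differed between the groups. For each array the mean of the 73 members was taken minus the mean of all named genes. The mimic-1825 arrays scored 2.52 at the lowest and 2.59 at the highest, with a mean of 2.57 ± 0.03 (SD, n = 6), and the control arrays scored 2.53 at the lowest and 2.58 at the highest, with a mean of 2.56 ± 0.02 (SD, n = 6). The groups overlapped. Mimic replicates 1, 2 and 3 each scored 2.59, above every control, whereas mimic replicates 4, 5 and 6 scored 2.54, 2.56 and 2.52. Both subunits shared that pattern: the large subunit score was 2.37 in mimic replicates 1, 2 and 3, and it was 2.31, 2.34 and 2.29 in mimic replicates 4, 5 and 6. For the small subunit these scores were 3.02, 3.01 and 3.01 in mimic replicates 1, 2 and 3, and 2.98, 2.97 and 2.97 in mimic replicates 4, 5 and 6. The 45 cytosolic ribosomal protein genes were also highest in mimic replicates 1, 2 and 3, at 3.00, 3.02 and 3.01, with 2.94, 2.98 and 2.94 in mimic replicates 4, 5 and 6. Their median difference was 0.002, with 0 of 45 past the adjusted threshold in limma, 2 higher and 0 lower at an unadjusted p under 0.05, beside 6.69 percent and 4.19 percent of named genes. The same mimic arrays also split in the median of all rows. It was 4.458, 4.443 and 4.454 in mimic replicates 1, 2 and 3, under every control (4.463 to 4.515). In mimic replicates 4, 5 and 6 it was 4.501, 4.488 and 4.499. Whether the scores follow this shift of whole arrays was not tested.

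**Figure D3:**
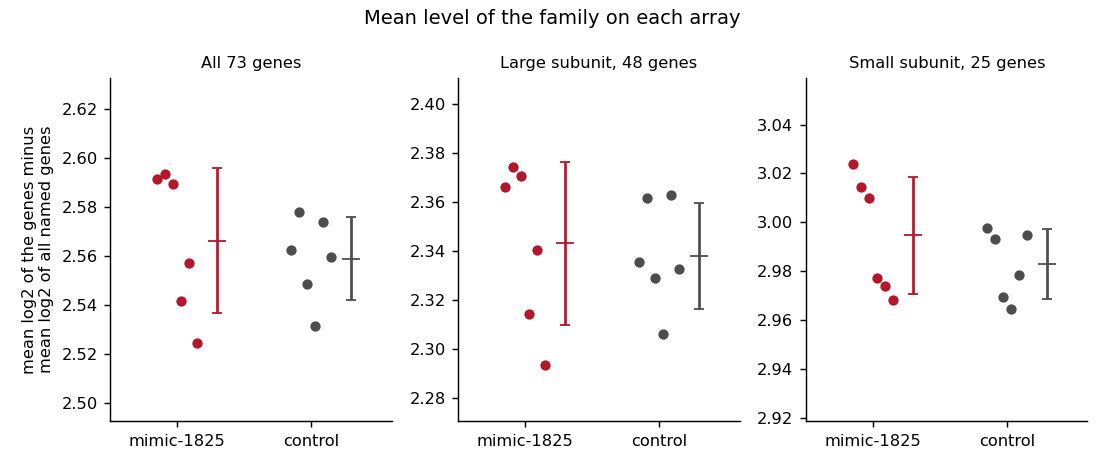
Each point is 1 array, showing the mean log2 value of the genes minus the mean of all named genes (vertical axis, same span in the 3 panels), with mimic-1825 arrays on the left and control arrays on the right of each panel; bars are the mean and SD of 6 arrays. Mimic replicates 1, 2 and 3 lie above every control in each panel, and mimic replicates 4, 5 and 6 lie mostly within the range of the controls. The group means lie within 1 SD of each other.

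Within groups the members moved together only weakly. After the group means were removed, the 2628 pairs of members had a mean correlation of 0.13 over the 12 arrays, and 65.9 percent of pairs were positive. Pairs within the large subunit averaged 0.16, pairs within the small subunit 0.08 and pairs across the subunits 0.12. The cytosolic ribosomal protein genes averaged 0.13 and the named genes in the brightest 25 percent of rows 0.07. These are descriptions over 12 arrays whose genes share array, labelling and scaling. The pairs with the highest values were MRPL46 with MRPS23 at 0.881 and MRPL51 with MRPL18 at 0.875, and the lowest was MRPS9 with MRPL18 at -0.840.

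**Figure D4:**
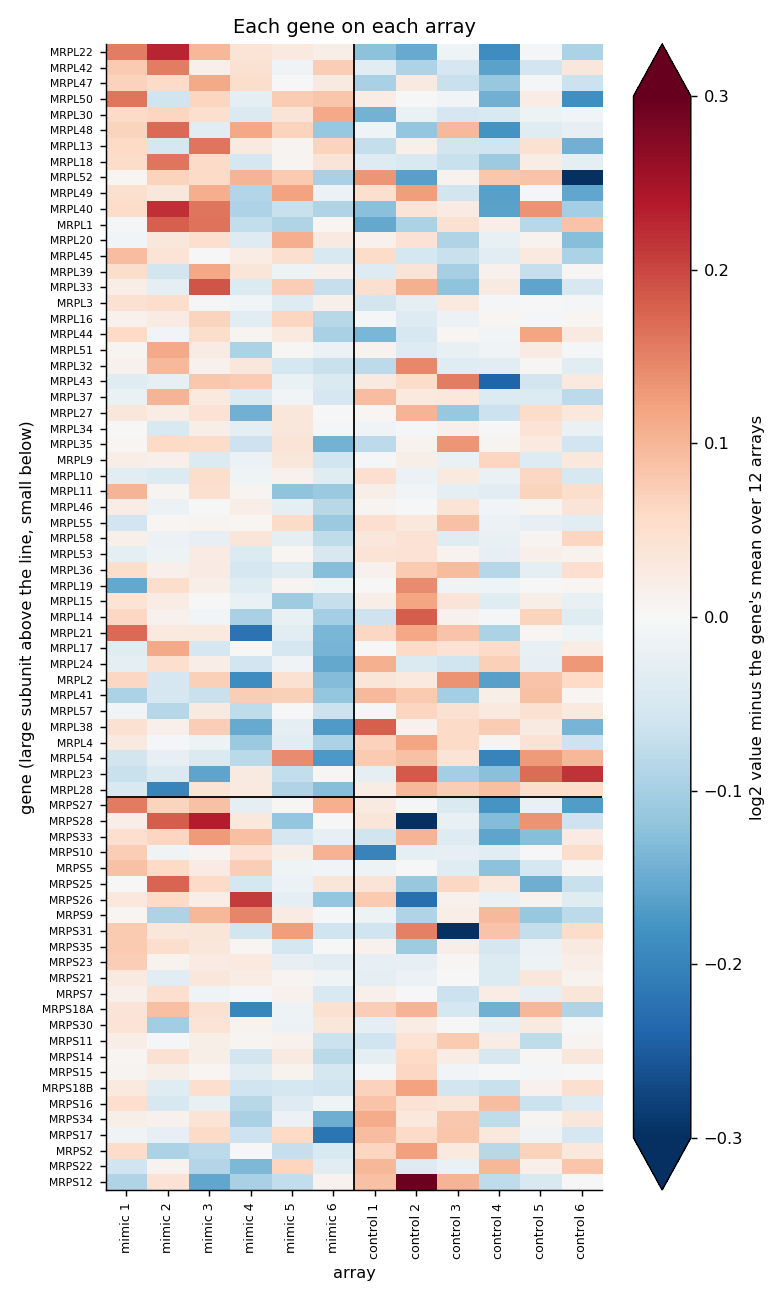
Colours give the log2 value of each gene (rows, large subunit above the line and small subunit below, ordered by difference) on each array (columns, mimic-1825 on the left and control on the right) minus the mean of that gene over 12 arrays; the scale ends at 0.3 either way. No block of colour separates the groups in either subunit, apart from the first and last few rows, which the ordering by difference puts there.

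The proteins around the exit of the polypeptide tunnel included the member with the smallest p. MRPL22 lines the tunnel and is related to the bacterial protein of the same number. On the mimic-1825 arrays it had 7.15 at the lowest, 7.20 at the median and 7.36 at the highest, against 6.94, 7.02 and 7.12 on the control arrays. All 6 mimic arrays lay above all 6 controls, which occurred in 1 of 73 members, beside 1.34 percent of named genes, 0.759 percent of all rows and 1.83 percent of named genes at or above the median level. Mimic arrays all below the controls occurred in 0 members, beside 0.403 percent, 0.414 percent and 0.486 percent in the same sets. MRPL22 averaged 7.22 ± 0.08 on mimic-1825 arrays and 7.03 ± 0.07 on control arrays (SD, n = 6 each). The difference was 0.19 (SE 0.05), or 1.14-fold, with a 95% interval from 0.08 to 0.30 (limma adjusted p = 0.25, unadjusted p = 0.00289). It was at an unadjusted p under 0.05 in all 19 alternative analyses and at an adjusted p under 0.05 in 0 of them, with adjusted values from 0.127 to 0.427.

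MRPL47, a relative of a bacterial protein beside the tunnel exit, had 9.43 at the lowest, 9.49 at the median and 9.55 at the highest on mimic-1825 arrays, and 9.32, 9.37 and 9.46 on control arrays. Here 5 of 6 mimic arrays lay above every control, and the groups overlapped. The difference was 0.11 (limma adjusted p = 0.395, unadjusted p = 0.0243). Other genes at the exit differed less: MRPL45, which anchors the ribosome to the inner membrane, by 0.05, MRPL39 by 0.05 and MRPL44 by 0.01. MRPL17, MRPL24 and MRPL23 had differences of -0.05, -0.06 and -0.10. Over the 8 exit proteins measured the median was 0.03, with 5 means higher and 3 lower, and quantile normalization left 4 higher and 4 lower.

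MRPL42, which occurs in mitochondria alone, had 10.13 at the lowest, 10.20 at the median and 10.29 at the highest on mimic-1825 arrays, against 9.98, 10.09 and 10.17 on control arrays. Of its mimic arrays, 4 lay above every control, and the groups overlapped. The difference was 0.12 (SE 0.05; limma adjusted p = 0.384, unadjusted p = 0.0223). MRPL42 has 6 pseudogenes named in RefSeq, so its row may also read copies. One of them, MRPL42P5, has a row of its own, with a mean of 4.62 ± 0.25 on mimic-1825 arrays and 4.34 ± 0.24 on control arrays (SD, n = 6 each), near the array medians.

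MRPL30, a member with a bacterial relative, had 9.63 at the lowest, 9.72 at the median and 9.78 at the highest on mimic-1825 arrays, and 9.53, 9.64 and 9.66 on control arrays. Mimic arrays lay above every control in 5 of 6 cases. The difference of 0.09 (limma adjusted p = 0.458, unadjusted p = 0.0469) was under an unadjusted 0.05 in 7 of 19 alternative analyses. Control replicate 1, at 9.53, was the lowest of its group, against 9.62 to 9.66 in the other 5.

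MRPL28, also of bacterial descent, was the member with a lower mean and an unadjusted p under 0.05. Mimic-1825 arrays had 7.09 at the lowest, 7.22 at the median and 7.33 at the highest, and control arrays had 7.31, 7.35 and 7.39. All 6 mimic arrays lay below the control mean and 4 below every control, and the groups overlapped. It averaged 7.22 ± 0.09 on mimic-1825 arrays and 7.35 ± 0.03 on control arrays (SD, n = 6 each). The difference of -0.13 (SE 0.05), or 0.913-fold, had a 95% interval from -0.24 to -0.03 (limma adjusted p = 0.364, unadjusted p = 0.0185). It was under an unadjusted 0.05 in all 19 alternative analyses.

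In the small subunit MRPS27, a pentatricopeptide repeat protein of mitochondria, had the smallest p. Its mimic-1825 arrays had 6.43 at the lowest, 6.54 at the median and 6.62 at the highest, and its control arrays had 6.29, 6.43 and 6.49. Of the mimic arrays 4 lay above every control. The difference of 0.13 (limma adjusted p = 0.403, unadjusted p = 0.0266) was under an unadjusted 0.05 in 14 of 19 alternative analyses.

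**Figure D5:**
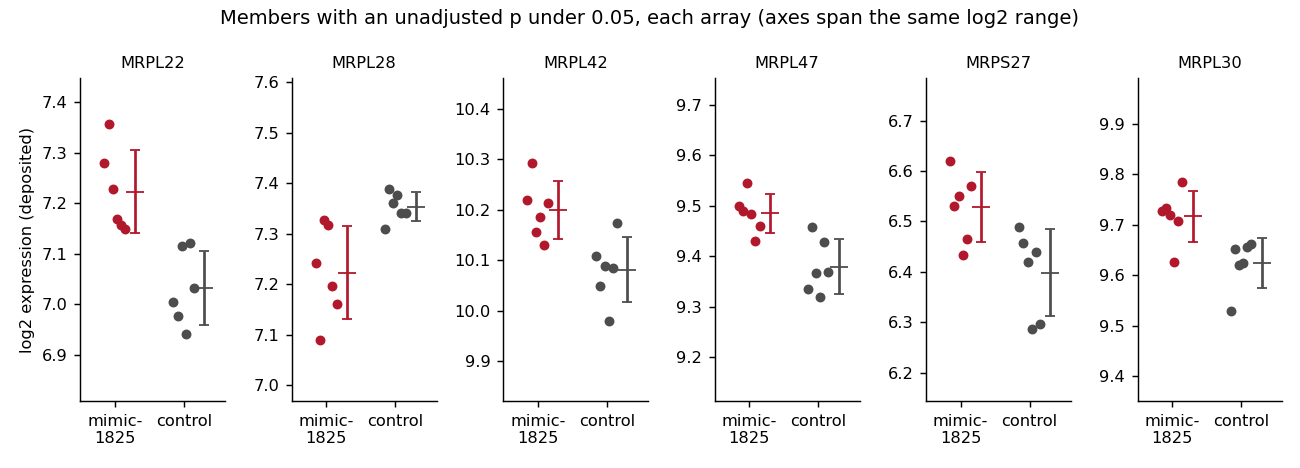
Deposited log2 values of the 6 members with an unadjusted p under 0.05, 1 point per array, with mimic-1825 on the left and control on the right of each panel, and bars for the mean and SD of 6 arrays; every vertical axis spans the same log2 range. The groups do not overlap for MRPL22, and they overlap for the other 5 genes.

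MRPS12, whose bacterial relative helps check codon pairing in the decoding centre, had the lowest difference of the small subunit. It had 7.85 at the lowest, 7.92 at the median and 8.05 at the highest on mimic-1825 arrays, against 7.93, 8.05 and 8.30 on control arrays. The groups overlapped, and the difference was -0.12 (limma adjusted p = 0.533, unadjusted p = 0.0846). Control replicate 2 was the highest array, at 8.30. Of the small subunit head proteins, MRPS7, MRPS9, MRPS10 and MRPS14 had differences of 0.01, 0.06, 0.08 and -0.01. MRPS5 differed by 0.08, with all 6 mimic arrays above the control mean (limma adjusted p = 0.539). MRPS15 and MRPS21 were among the steadiest rows, with within-group SDs of 0.03 each and differences of -0.02 and 0.01.

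The stalk of the large subunit, where translation factors bind, had lower means on the mimic arrays in 3 of 3 genes measured, by little. MRPL10, which joins the stalk to the ribosome, had 6.85 at the lowest, 6.86 at the median and 6.94 at the highest on mimic-1825 arrays, and 6.84, 6.89 and 6.95 on control arrays. MRPL11, at the stalk base, had 8.35, 8.48 and 8.58 on mimic-1825 arrays against 8.44, 8.48 and 8.54 on control arrays. MRPL53 had 9.40, 9.43 and 9.48 on mimic-1825 arrays and 9.43, 9.46 and 9.49 on control arrays. In all 3 the groups overlapped, and the differences were -0.02, -0.02 and -0.03, with limma adjusted p values of 0.903, 0.912 and 0.788.

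In the central protuberance, the crown of the large subunit, the 7 members assigned to it here had a median difference of 0.002. That assignment may be incomplete, and MRPL58, given below, was not among the 7. MRPL18 had 0.09, with an unadjusted p of 0.0677, MRPL48 had 0.09 and MRPL40 had 0.06. MRPL38, MRPL46 and MRPL27 had -0.07, -0.03 and -0.005, and MRPS30 had 0.002. MRPL58, a peptidyl-tRNA hydrolase that became a fixed part of the large subunit, had 10.65 at the lowest, 10.71 at the median and 10.77 at the highest on mimic-1825 arrays, and 10.69, 10.75 and 10.80 on control arrays. Its difference was -0.03 (limma adjusted p = 0.818), and the groups overlapped.

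MRPS18A and MRPS18B are paralogs of 1 bacterial protein. MRPS18A had 9.05 at the lowest, 9.29 at the median and 9.34 at the highest on mimic-1825 arrays, and 9.11, 9.26 and 9.35 on control arrays. MRPS18B had 9.19, 9.20 and 9.30 on mimic-1825 arrays and 9.18, 9.28 and 9.37 on control arrays. Both overlapped between the groups, with differences of 0.004 and -0.04 and limma adjusted p values of 0.991 and 0.780. The table holds 7 rows for MRPS18B, and all 7 have the same value on every array, so they count as 1 measurement.

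Members were also split by whether their product has a bacterial relative or is found in mitochondria alone, with subunits taken as in the structures. In the large subunit the medians were -0.02 for 30 bacterial-type genes and 0.01 for 20 mitochondria-specific genes, and the second turned to -0.01 with quantile normalization. In the small subunit the median was -0.009 for 14 bacterial-type genes. With arrays centred on their medians, which moves every gene by the same amount, it was 0.006, beside 0.015 over all named genes. For 9 mitochondria-specific genes the median was 0.05 in the values as deposited. Of those 9, 7 had higher means, or 77.8 percent, beside 50.1 percent of all named genes and 59.9 percent of named genes in the brightest 25 percent of rows. They were MRPS27, given above, and MRPS33, MRPS25, MRPS26, MRPS31, MRPS35 and MRPS23, with differences of 0.09, 0.07, 0.06, 0.05, 0.04 and 0.03. MRPS22 and MRPS34 had lower means, with -0.08 and -0.06. In limma 0 of the 9 had an adjusted p under 0.05, and 1, MRPS27, was higher at an unadjusted p under 0.05, beside 6.69 percent of named genes. MRPS28, a relative of the bacterial S1 protein, had the highest difference among the bacterial-type genes of the small subunit, 0.12 (limma adjusted p = 0.631).

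Most of the remaining members had differences within 0.1 of 0. Those with higher means were MRPL50 (0.10), MRPL13 (0.09), MRPL52 and MRPL49 (0.07 each), MRPL1 and MRPL20 (0.06 each), MRPL33 (0.05), MRPL3, which lies near the peptidyl transferase centre, and MRPL16 (0.02 each), MRPL51, MRPL32 and MRPL43 (0.01 each) and MRPL37 (0.003). Those with lower means were MRPL34 and MRPL55 (-0.008 and -0.03), MRPL35 and MRPL9 (-0.02 each), MRPL36, MRPL19 and MRPL15 (-0.04 each), MRPL14 and MRPL21 (-0.05 each), MRPL2 and MRPL41 (-0.06 each), MRPL57 (-0.07), and MRPL4 and MRPL54 (-0.08 each). In the small subunit MRPS2, MRPS17, MRPS16 and MRPS11 had -0.08, -0.07, -0.05 and -0.004. None of these had an unadjusted p under 0.05 in limma.

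Several genes are measured by more than 1 row or have copies. The second rows of MRPS16 and MRPS2 gave differences of -0.07 and -0.05, beside -0.05 and -0.08 for the rows used. The second row of MRPL44 lay at a mean of 2.80, far under the array medians, and gave -0.15. Of the 73 members, 38 have at least 1 pseudogene named in RefSeq, and 3 of the 6 members with an unadjusted p under 0.05 do. MRPL45P2, a copy of MRPL45, had 6.61 at the lowest, 6.73 at the median and 6.97 at the highest on mimic-1825 arrays, against 6.26, 6.51 and 6.62 on control arrays. All 6 of its mimic arrays lay above the control mean, and the difference was 0.28 (SE 0.08; limma adjusted p = 0.272), whereas MRPL45 itself had 0.05. MRPS31P5 had a difference of 0.13 and MRPS31 of 0.05. The antisense genes MRPL20-AS1 and MRPL23-AS1 had 0.03 and -0.10, beside 0.06 for MRPL20 and -0.10 for MRPL23.

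Genes of the same pathway outside the symbol pattern were taken from lists. Of 5 listed ribosomal proteins, 3 were measured, all of the small subunit. PTCD3, a pentatricopeptide repeat protein, had 8.72 at the lowest, 8.78 at the median and 8.81 at the highest on mimic-1825 arrays, and 8.60, 8.66 and 8.72 on control arrays, a difference of 0.11 (limma adjusted p = 0.371, unadjusted p = 0.0197). DAP3, a GTP-binding protein first described in cell death, had 8.54, 8.62 and 8.70 on mimic-1825 arrays against 8.47, 8.60 and 8.70 on control arrays. CHCHD1 had 7.39, 7.70 and 7.79 on mimic-1825 arrays and 7.50, 7.69 and 7.80 on control arrays. In all 3 the groups overlapped, and DAP3 and CHCHD1 had differences of 0.04 and -0.02. In limma 1 of the 3, PTCD3, was higher at an unadjusted p under 0.05, and 0 were lower. The shares among named genes were 6.69 percent and 4.19 percent. Quantile normalization also gave 1 higher and 0 lower, beside 5.37 percent and 5.27 percent of named genes.

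Factors that assemble the mitoribosome or modify its RNA had 24 of 30 listed genes named, with a median difference of 0.009 and 15 higher and 9 lower means. At an unadjusted p under 0.05, 1 was higher, the methyltransferase METTL15 (0.11), and 0 were lower, beside 6.69 percent and 4.19 percent of named genes. GTPBP10 and NOA1, GTPases of ribosome assembly, had 0.10 and 0.08. The median turned to -0.01 after quantile normalization, with 8 higher and 16 lower.

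Translation factors of mitochondria had 15 of 22 listed genes named, with a median of 0.05, 13 higher and 2 lower means, and 4 higher and 0 lower at an unadjusted p under 0.05, beside the 6.69 percent and 4.19 percent of named genes. After quantile normalization the median was 0.05, with 10 higher and 5 lower. GUF1, the relative of the bacterial translational GTPase LepA, had 10.15 at the lowest, 10.22 at the median and 10.31 at the highest on mimic-1825 arrays, and 10.03, 10.09 and 10.12 on control arrays. All 6 of its mimic arrays lay above all 6 controls, which occurred in 1 of the 15, beside 1.34 percent of named genes. GUF1 differed by 0.15 (SE 0.04; limma adjusted p = 0.275). MTRFR, a release factor relative that rescues stalled mitoribosomes, had 6.94, 7.10 and 7.18 on mimic-1825 arrays and 6.71, 6.86 and 6.97 on control arrays, a difference of 0.22 (limma adjusted p = 0.241). SLIRP, an RNA-binding partner of LRPPRC, had a difference of 0.16 and MTIF2, the initiation factor that brings the first tRNA, of 0.13. MRRF, the ribosome recycling factor, had the largest difference in size of the list, -0.22 (SE 0.14; limma adjusted p = 0.613), and its groups overlapped. With limma 0 of the 15 had an adjusted p under 0.05.

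Of 13 listed regulators of mitochondrial transcription and biogenesis, 5 were named, and their median was 0.03, with 4 higher and 1 lower means. In limma 1 of the 5, NRF1, was higher at an unadjusted p under 0.05, and 0 were lower. The shares among named genes were 6.69 percent and 4.19 percent. After quantile normalization the median was 0.009, with 3 higher and 2 lower means. At an unadjusted p under 0.05 there were then 0 higher and 0 lower, beside 5.37 percent and 5.27 percent of named genes. NRF1, a transcription factor of many nuclear genes for mitochondrial proteins, had 7.65 at the lowest, 7.76 at the median and 7.78 at the highest on mimic-1825 arrays, and 7.40, 7.64 and 7.71 on control arrays, a difference of 0.13 (limma adjusted p = 0.445, unadjusted p = 0.0398). YY1 had -0.03 and POLRMT, the mitochondrial RNA polymerase, had 0.03. GARS1 and KARS1, which serve tRNA charging in both the cytosol and mitochondria, were the 2 of 21 listed synthetases named, and had 0.03 and -0.02.

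What members share beyond their symbols was looked at in their promoters, taken from RefSeq (GRCh38.p14) as 250 bases before to 50 after the first listed start of each gene. Of 73 members 65 matched, and MRPL2, MRPL10, MRPL13, MRPL15, MRPL21, MRPL23, MRPL35 and MRPS28 did not. Both strands were searched for CCGGAAG, the core letters bound by ETS factors such as GABP, for AAGATGGCG, letters bound by YY1, and for GCGCATGCG, letters bound by NRF1. The ETS letters stood in 28 of 65 promoters of the family, or 43.1 percent, against 14.2 percent of 15843 protein-coding genes and 10.7 percent of all 27305 genes in the promoter table. YY1 letters stood in 12 of 65, or 18.5 percent, against 2.74 percent of protein-coding genes and 1.85 percent of all genes. NRF1 letters stood in 2 of 65, or 3.08 percent, against 2.76 percent of protein-coding genes and 2.1 percent of all genes. By subunit, the ETS letters stood in 41.5 percent of 41 large subunit promoters and in 45.8 percent of 24 small subunit ones. ETS and YY1 letters stood together in 4 promoters and overlapped in 0. The comparison sets were not matched for expression in these cells, whereas 69 of the 73 members lay among the brightest 25 percent of rows. Whether other genes expressed at such levels have similar shares was not tested. A match describes letters and shows no binding.

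The stretches of 27 bases around the first match are printed for members with an unadjusted p under 0.05, with the matched letters in capitals, so that the promoters of the members described array by array can be read side by side. MRPS27 had no match to the 3 motifs. The MRPL22 promoter held matches to 2 of them, at chr5:154941039-154941065 and chr5:154941096-154941122 on the plus strand. The others are chr12:93467512-93467538 on the plus strand for MRPL42, chr3:179604661-179604687 on the minus strand for MRPL47, chr2:99181029-99181055 on the plus strand for MRPL30 and chr16:370515-370541 on the minus strand for MRPL28. MRPL28, with a lower mean, and MRPL47 and MRPL30, with higher means, all held the ETS letters.
MRPL22, NRF1 letters: ccagagtattGCGCATGCGtgctgtcc
MRPL22, YY1 letters: gcgggagggcgaAAGATGGCGgcggca
MRPL42, YY1 letters: ggattgaaacAAGATGGCGggttcgtg
MRPL47, ETS letters: gcttgagacgCCGGAAGtgacgctatc
MRPL30, ETS letters on the other strand: gtctgctgcgCTTCCGGgaagtggtca
MRPL28, ETS letters on the other strand: ggcagatcggCTTCCGGttccggtggg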

How the data were processed

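Total RNA was measured on Human Gene 2.0 ST arrays. The authors deposited log2 expression values, 1 per array for each of 53617 transcript clusters, and per the submitters' processing notes the tool was Affymetrix Expression Console. The log2 scale was read from the values, which run from 1.62 to 14.4. For the array's background correction, normalization and genome build, the sources used here give nothing. Rows were named through the platform annotation, with symbols updated by gene identifier in RefSeq: 16098 rows had 1 symbol, 0 had several and 37519 had none. All 16098 matched and 0 symbols changed. Arrays were grouped by title. The number of arrays limits the precision.

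Values were used as deposited in limma 3.58.1 (R 4.3.3; lmFit, eBayes without trend, two-sided, mimic-1825 minus control), with Benjamini-Hochberg adjustment over all rows and a threshold of 0.05. Medians and list counts carry no test. The fit was run on simulated independent normal values with known changes, to check that their mean size was recovered. That check does not measure the error rate or power on these arrays. Members and lists were chosen with earlier results of these data known. Per-array values were given for up to 5 higher and 5 lower members per subunit with an unadjusted p under 0.05, for members whose groups do not overlap, for MRPS18 paralogs and stalk proteins, and for the proteins outside the pattern; up to 3 genes with the smallest p were named from each other list. MRPS12, MRPS28, MRPL58, MRPL45P2, MTIF2 and MRRF were described, and MRPS28 and MRPL55 classed as bacterial-type, after their values were seen, as were the correlated pairs at the extremes. The 3 promoter motifs and the symbol pattern for cytosolic ribosomal proteins were set with the files at hand, and a list of respiratory chain genes was dropped because most had no named row. Alternatives covered scaling, prior, row filters, the replicate number as a block and each array left out.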

Additional observations from a re-analysis of the deposited data

Results flagged for a closer look

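Dixon's gap test was run on the top and bottom array of 154 groups of 6, made of 73 genes and 4 scores with mimic-1825 and control arrays kept separate. It found 10 gaps, and chance alone would give about 1 in 20 groups. Among mimic-1825 arrays, replicate 4 was the lowest for MRPL27 at 7.21, against 7.35 to 7.40 in the other 5, and for MRPS18A at 9.05, against 9.24 to 9.34. Mimic replicate 6 was the lowest for MRPS11 at 9.46, against 9.52 to 9.54. Among control arrays, replicate 1 was the lowest for MRPL30 at 9.53, against 9.62 to 9.66, and for MRPS10 at 9.71, against 9.88 to 9.97. Control replicate 2 was the highest for MRPL19 at 7.75, against 7.60 to 7.62, for MRPL32 at 6.20, against 5.97 to 6.05, and for MRPS15 at 11.32, against 11.25 to 11.26. Control replicate 4 was the lowest for MRPL54 at 6.70, against 6.94 to 7.02, and for MRPL2 at 10.60, against 10.79 to 10.89.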

How the results depend on the processing

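The count of 0 members past an adjusted p of 0.05 held in all 19 alternatives. The 5 higher members at an unadjusted p under 0.05 became 2 with quantile normalization and 3 with a replicate block, and ranged from 1 to 6 without single arrays. Fewest, 1, remained without control replicate 4, and 3 without mimic replicate 1, 3 or 6. The 1 lower member became 6 with quantile normalization and 3 with an intensity trend and robust prior, and ranged from 1 to 4 without single arrays, with 4 without control replicate 4 and 2 without control replicate 6. With quantile normalization 5.37 percent of named genes were higher and 5.27 percent lower. Such shares were not computed for the block, the prior or the fits without single arrays. Whether those counts moved apart from named genes as a whole was not tested. The count over all rows, 6, was 39 with an intensity trend and robust prior, 13 among rows at or above the median, 0 with 1 row per named gene and 0 with a replicate block, and ranged from 0 to 6 without single arrays. The causes were not tested. The median of the family ran from -0.02 (quantile normalization) to 0.02 (arrays centred on their medians). Over all named genes the median was -0.006 and 0.015 in the same scalings. Large minus small ranged from -0.034, without mimic replicate 2, to -0.0016 without single arrays. MRPS18A turned to -0.015 with quantile normalization and ranged from -0.025 to 0.043 without single arrays, and MRPL11 ranged from -0.045 to 0.00028. Same-numbered arrays did not deviate together (correlations from -0.11 to 0.08; 1 of 6 mimic-1825 arrays and 0 of 6 control arrays correlated best with their own number), so the numbers are taken not to pair the samples. Without probe intensities, signal over background is unknown here.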
